A study of Caenorhabditis elegans with 2 samples.

Results

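The UDP-glucuronosyltransferase genes of Caenorhabditis elegans, whose names start with ugt, are a family of 67 among 19973 protein-coding genes of the Ensembl WBcel235 annotation. All 67 were taken by name, and each was asked whether the transcription factor ELT-2 had a peak at its promoter in L1 larvae, the first larval stage. The worms were hermaphrodites of strain OP56 (unc-119(ed3) III; wgIs56), which stably express ELT-2 with a GFP-FLAG tag at the C-terminal end. Larvae starved after bleaching to synchronize them were collected 6 h later, and DNA held by the tagged protein was recovered with an antibody against GFP and sequenced (ChIP-seq). There was 1 group with 2 replicates, called biological in the labels, which give no further detail of how the cultures were separated, so no conditions could be compared and no test of a condition exists. The line is a single transgenic strain, and material came from whole animals, so a peak does not show which tissue carried it. The labels do not say whether the larvae had been fed again.

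UDP-glucuronosyltransferases sit in the endoplasmic reticulum and transfer a sugar from a UDP-sugar donor to fat-soluble small molecules, which makes those molecules more soluble and easier to export. This is the conjugation step (phase II) of detoxification. It follows oxidation by cytochromes P450 (phase I), and the products leave the cell through ABC transporters. In the worm the intestine is a main site of this chemistry, and the sugar attached is often glucose. ELT-2 is the main GATA factor of the intestine after its specification, and GATA factors recognise short DNA words with GATA at their core. The substrates of most single worm ugt enzymes are not known, so the genes are described below by their position, peaks and kinship.

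A gene was called bound when the summit, the highest point of a peak, lay between 1000 bp upstream and 200 bp downstream of any of its annotated transcript 5′ ends. Many worm transcripts are trans-spliced, so an annotated 5′ end is often not the start of transcription. Peaks came from the authors' list labelled optimal and thresholded by the irreproducible discovery rate (IDR), a procedure that compares peak ranks between replicates. That list held 5443 peaks on the build ce11, and they were the 5443 strongest of the 16833 peaks called on both replicates pooled. The relaxed list of replicate 1 held 17177 peaks and that of replicate 2 held 18929, background included on purpose. Strength is the authors' signal value, whose scale the sources used here do not give and which ran from 142 to 6412 in the thresholded list, and rank 1 is the strongest. Peak lists carry no read counts, and the depth of neither replicate is known.

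By this definition 34 of the 67 ugt genes (50.7%, Wilson 95% interval 39.1 to 62.3) were bound, where 17.0% of all protein-coding genes were. The other 33 had no thresholded summit in the promoter window. The 34 bound genes carried 37 distinct peaks, since ugt-22, ugt-53 and ugt-4 had 2 peaks each. No peak lay in the promoters of 2 ugt genes. All such intervals cover counting error only, and neighbouring genes are not independent.

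The sequence at the strongest summits is shown because 5 of the 6 hold the GATA hexamer TGATAA, or TTATCA when read on the other strand. Each run is 101 bases of the RefSeq WBcel235 genome centred on the summit, given 5′ to 3′ on the strand of the gene, with the hexamer in capitals. They are the peaks of ugt-53 (chrV:2848682-2848782, plus strand), ugt-64 (chrV:3505911-3506011, minus strand), ugt-50 (chrX:12691485-12691585, plus strand), ugt-20 (chrIV:6083792-6083892, minus strand), ugt-46 (chrX:530136-530236, minus strand) and ugt-65 (chrIV:12420614-12420714, plus strand).
ugt-53: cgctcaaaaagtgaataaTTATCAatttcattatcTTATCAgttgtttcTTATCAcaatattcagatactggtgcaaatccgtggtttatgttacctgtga
ugt-64: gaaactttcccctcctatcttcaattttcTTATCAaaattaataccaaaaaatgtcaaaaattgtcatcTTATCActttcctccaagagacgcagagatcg
ugt-50: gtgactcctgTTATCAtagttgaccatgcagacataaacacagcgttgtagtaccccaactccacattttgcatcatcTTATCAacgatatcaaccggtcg
ugt-20: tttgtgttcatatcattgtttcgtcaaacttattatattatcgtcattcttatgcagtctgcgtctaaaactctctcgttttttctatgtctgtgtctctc
ugt-46: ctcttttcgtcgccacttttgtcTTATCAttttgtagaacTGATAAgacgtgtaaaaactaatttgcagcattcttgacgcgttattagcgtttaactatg
ugt-65: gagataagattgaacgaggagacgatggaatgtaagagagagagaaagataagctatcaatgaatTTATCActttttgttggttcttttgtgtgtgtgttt

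The ugt-53 window holds 3 copies, those of ugt-64, ugt-50 and ugt-46 hold 2, that of ugt-65 holds 1 and that of ugt-20 holds none. A match is a description of the letters and not a shown binding site.

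The peak 611 bp upstream of ugt-53 was the strongest in a ugt promoter, with rank 183 and signal 888. Its rank was 178 in replicate 1 (signal 501) and 188 in replicate 2 (signal 385). This summit lay nearer to srj-49, a gene of a predicted chemoreceptor family, at 392 bp upstream. A weaker ugt-53 peak of rank 2491 (signal 266) stood 33 bp upstream and ranked 2713 in replicate 1 and 1681 in replicate 2. The ugt-53 promoter was therefore marked by 2 peaks, and the nearer one was the weaker in both replicates.

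The second strongest promoter peak belonged to ugt-64, at rank 455 and signal 633. It ranked 476 in replicate 1 (signal 357) and 503 in replicate 2 (signal 267). Its summit lay inside an intron of ugt-64, 265 bp upstream of an internal annotated start, and ugt-64 was the only bound member lost when the outermost 5′ end alone was used. The stretch from 1000 bp upstream to 200 bp downstream of that outermost end does not hold this summit. There 51.4% of words of 31 bases occur once in the genome, the lowest share among bound members.

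The peak of ugt-50 followed, 38 bp upstream of a 5′ end, with rank 676 and signal 543. In replicate 1 it ranked 825 (signal 285), and in replicate 2 it ranked 558 (signal 257). The peak of ugt-20 had rank 707 and signal 534 at 242 bp upstream, with ranks of 889 (signal 274) and 549 (signal 259) in replicates 1 and 2. Both genes were thus ranked higher in replicate 2 than in replicate 1. The ugt-46 peak lay 103 bp downstream of the 5′ end, in an exon, at rank 759 and signal 517, and ranked 794 (signal 290) and 825 (signal 216). The ugt-65 peak lay 19 bp upstream at rank 785 and signal 511, and ranked 811 (signal 287) and 710 (signal 233). That 5′ end is in the Ensembl annotation and not in RefSeq, whose nearest ugt-65 transcript end is 4553 bp from the summit. RefSeq names the longer ugt-65 product a UDP-glucuronosyltransferase and a second, short one otherwise, and the protein is 29.6% identical to its closest ugt relative, ugt-39, the lowest such value of the family. None of the 6 genes with the strongest promoter peaks ranked below 889 in the thresholded list or in either replicate.

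Cutting the thresholded list into 4 near-equal rank classes placed those 6 genes and 4 more in the strongest class, ranks 1 to 1361. The ugt-22 peak, 38 bp upstream, had rank 1042 and signal 447, with rank 840 in replicate 1 and 1452 in replicate 2. The ugt-62 peak, 233 bp upstream, had rank 1163 and signal 421, with ranks of 1036 and 1517. The ugt-16 peak, 48 bp upstream, had rank 1164 and signal 421, with ranks of 1520 and 840. The replicates thus disagreed on the order of these genes: replicate 1 placed ugt-22 and ugt-62 above ugt-16, and replicate 2 placed ugt-16 above both. The last of the 4 was ugt-49, whose summit lay 919 bp upstream at rank 1284 and signal 397, with ranks of 1849 and 872.

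The rank class from 1362 to 2722 held the strongest peaks of 9 genes. These were ugt-44 (rank 1393), ugt-26 (rank 1401), ugt-21 (rank 1683), ugt-39 (rank 2034), ugt-43 (rank 2158), ugt-33 (rank 2343), ugt-4 (rank 2492), ugt-17 (rank 2531) and ugt-28 (rank 2544). The next class, from rank 2723 to 4083, held 7 genes. They were ugt-12 (rank 2745), ugt-7 (rank 2826), ugt-5 (rank 2837), ugt-2 (rank 2898), ugt-54 (rank 2943), ugt-23 (rank 3004) and ugt-58 (rank 3251). The weakest class held ugt-40 (rank 4101), ugt-18 (rank 4409), ugt-24 (rank 4509), ugt-37 (rank 4691), ugt-38 (rank 4720), ugt-32 (rank 4892), ugt-51 (rank 5134) and ugt-52 (rank 5426). With 10, 9, 7 and 8 genes the bound ugt genes were spread over all 4 classes, which across all bound genes held 26.1%, 25.9%, 24.9% and 23.0%. The median rank of the strongest peak was 2512 for bound ugt genes and 2593 for all bound genes, with median signals of 264 and 259. Thus the ugt family had a larger share of bound genes than the genome, while the strength of its peaks was close to that of bound genes in general.

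**Figure D1:**
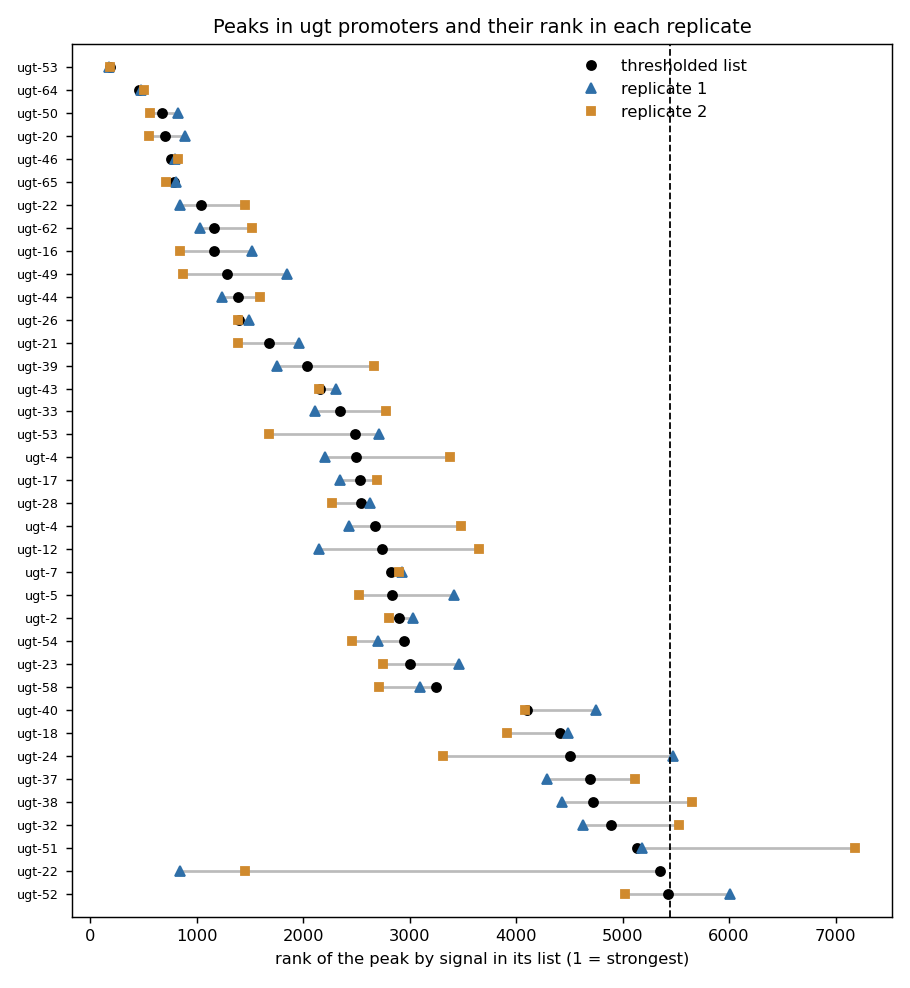
Rank by signal (horizontal axis, 1 is strongest) of the 37 thresholded peaks in ugt promoters (black circles), with the rank of the overlapping peak in the relaxed list of replicate 1 (triangles) and replicate 2 (squares). The dashed line marks rank 5443, and genes with 2 peaks have 2 rows. Both ugt-22 rows carry the same replicate ranks. The strongest peak, at ugt-53, ranks 183, 178 and 188, and the 5 peaks with a replicate rank past the line all have thresholded ranks of 4509 or more.

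Every one of the 37 peaks overlapped a peak in both relaxed replicate lists, a lax criterion because those lists include background. By a stricter one, 32 (86.5%) were among the 5443 strongest of both replicates, beside 85.7% of all promoter peaks. The 5 that were not belonged to ugt-52, ugt-24, ugt-32, ugt-51 and ugt-38. For ugt-24 and ugt-52 the rank fell outside in replicate 1, at 5474 (signal 81.5) and 6006 (signal 74.9). For ugt-32, ugt-38 and ugt-51 it fell outside in replicate 2, at 5529 (signal 61.9), 5648 (signal 60.7) and 7184 (signal 49.2). Across the 37 peaks the ranks in the replicates had a Spearman rho of 0.870, given as a description because the peaks were selected on the pooled data. The weak second peak of ugt-22 (rank 5348, 155 bp downstream) overlaps the stronger ugt-22 peak. In each replicate the strongest peak overlapping it was the one that overlaps the stronger peak. It is counted among the 32 and in the rho with those shared ranks, and its own replicate support was not assessed.

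Most summits lay close to a 5′ end. Of the 34 bound genes, 29 had the strongest summit upstream and 5 had it downstream. The summit was within 100 bp in 17 genes (50%), beside 23.8% of all bound genes, and within 250 bp in 25 genes (73.5%), beside 55.7%. The median distance was 101 bp for bound ugt genes and 214 bp for all bound genes. The closest were ugt-5 at 4 bp, ugt-65 at 19 bp and ugt-23 at 20 bp. At the other end, 7 genes had the summit over 500 bp away, which were ugt-28, ugt-53, ugt-51, ugt-40, ugt-38, ugt-49 and ugt-4. Of all 37 summits, 26 lay in no protein-coding gene body, 9 in an exon and 2 in an intron.

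**Figure D2:**
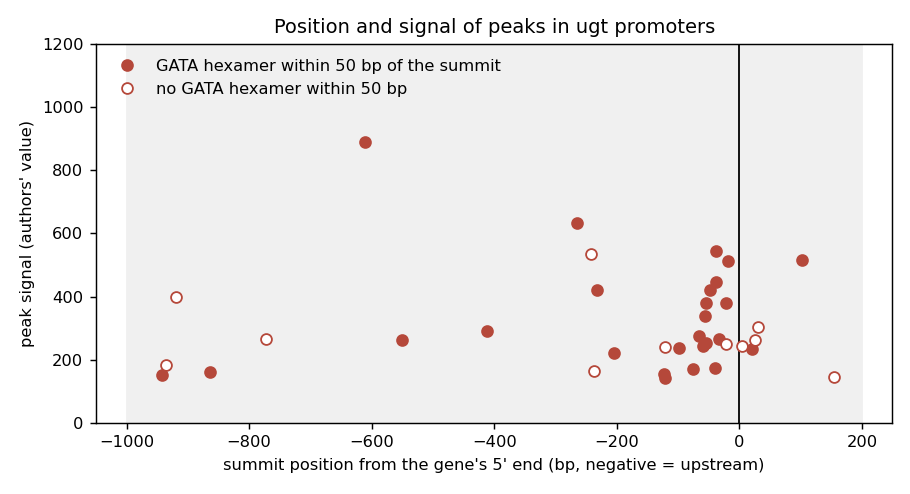
Position of each of the 37 summits from the nearest 5′ end of its ugt gene (horizontal axis, bp, negative is upstream) against the authors' peak signal (vertical axis). Filled circles have the GATA hexamer within 50 bp of the summit and open circles do not. The grey band is the promoter window, and the 888-signal peak of ugt-53 lies 611 bp upstream while most others gather near the line at the 5′ end.

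A promoter peak can also lie in the window of another gene. That was so for 6 of the 37 ugt peaks (16.2%), beside 20.6% of all 3076 promoter peaks. Besides both ugt-53 peaks, the ugt-24 peak lay 141 bp upstream of C49A9.6, the ugt-12 peak 779 bp upstream of T19H12.2, the ugt-17 peak 773 bp upstream of C08B6.2 and the ugt-18 peak 334 bp upstream of ZC443.4. The ugt-24 summit lay 75 bp from an Ensembl 5′ end but 1336 bp from the RefSeq one, outside the window. Only the stronger ugt-53 peak lay nearer to the other gene than to the ugt gene. Another 3 summits lay in the body of a neighbouring ugt gene, those of ugt-28 in ugt-27, ugt-40 in ugt-37 and the far ugt-4 peak in ugt-6.

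The hexamer TGATAA, sought on both strands, lay within 50 bp of 26 of the 37 ugt summits (70.3%, Wilson 95% interval 54.2 to 82.5). Over all 3076 promoter peaks the share was 42.4%. Windows of the same length centred 500 bp to either side of the ugt summits held it in 6 cases each (16.2%). The longer word TGATAAG, whose matches all contain TGATAA, was within 50 bp of 16 ugt summits (43.2%), beside 23.6% of promoter peaks. A looser GATA word, which includes TGATAA and accepts A or T before GATA and A or G after it, was within 50 bp of 32 ugt summits (86.5%), beside 54.6%. Within 150 bp, 22 ugt peaks (59.5%) had at least 2 copies of TGATAA, beside 35.3% of promoter peaks. Within the family, the hexamer was present at 14 of the 19 stronger peaks and 12 of the 18 weaker ones.

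The 11 ugt summits with no TGATAA within 50 bp were those of ugt-20, ugt-12, ugt-40, ugt-37, ugt-39, ugt-17, ugt-49, ugt-2 and ugt-5, and the second peaks of ugt-22 and of ugt-4. At ugt-12, ugt-40, ugt-49 and ugt-2 there was none within 500 bp either. Closest to their summits were the hexamers of ugt-23, at 0.5 bp from its centre, and of ugt-22 and ugt-53, at 1.5 bp. The windows of ugt-22 (chrIV:13639172-13639272, plus strand, rank 1042) and ugt-16 (chrV:12824926-12825026, plus strand, rank 1164) show hexamers grouped at a summit, and that of ugt-12 (chrV:4889600-4889700, minus strand, rank 2745) shows a summit with none.
ugt-22: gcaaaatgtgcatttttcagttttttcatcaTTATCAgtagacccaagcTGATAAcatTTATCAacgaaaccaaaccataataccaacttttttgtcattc
ugt-16: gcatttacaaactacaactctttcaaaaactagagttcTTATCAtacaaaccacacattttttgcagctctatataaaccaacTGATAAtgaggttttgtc
ugt-12: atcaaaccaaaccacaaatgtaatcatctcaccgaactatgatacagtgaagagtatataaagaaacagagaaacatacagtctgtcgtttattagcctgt

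The hexamer was common in ugt promoters whether or not the gene was bound. In the 300 bp from 250 bp upstream to 50 bp downstream of the outermost 5′ end, TGATAA was present in 46 of 67 ugt promoters (68.7%), beside 30.2% of all promoters of that length. It was found in 25 of the 34 bound ugt genes (73.5%, Wilson 95% interval 56.9 to 85.4) and in 21 of the 33 unbound ones (63.6%, 46.6 to 77.8). These intervals overlap, and the difference was not tested. Among all genes the shares were 42.8% of bound and 27.6% of unbound ones. At least 2 copies were present in 14 bound ugt promoters and in 3 unbound ones, those of ugt-45, ugt-42 and ugt-48, beside 7.73% of all promoters. The median AT content of these promoters was 67.5% for bound and 67.7% for unbound ugt genes and 65.7% for all genes.

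Where these copies lay was also compared between bound and unbound members, a comparison chosen after values were seen. Of 41 copies in bound ugt promoters, 28 (68.3%) were centred within 100 bp upstream of the 5′ end, where 6 of 24 copies (25%) in unbound ugt promoters were. Among all bound genes the share was 42.0% and among all unbound genes 35.8%. Between 150 and 250 bp upstream the order turned, with 7 copies (17.1%) in bound and 9 copies (37.5%) in unbound ugt promoters. The shares there were 29.3% among all bound and 32.5% among all unbound genes. Copies in the same promoter share their source, and the difference was not tested.

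**Figure D3:**
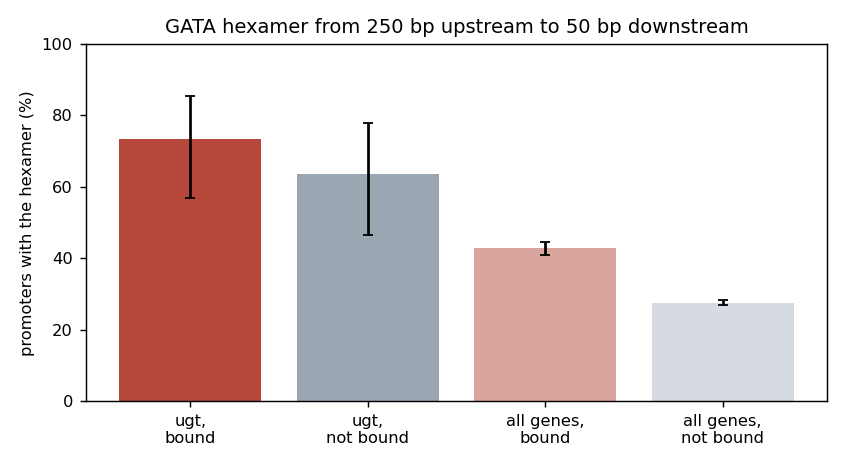
Share of promoters (vertical axis, %) with the GATA hexamer from 250 bp upstream to 50 bp downstream of the outermost 5′ end, for bound and unbound ugt genes and for all bound and unbound genes. Bars show the share and lines the Wilson 95% interval. The ugt bars stand at 73.5% and 63.6%, and those of all genes at 42.8% and 27.6%.

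The promoter of ugt-42 (chrV:646938-647237, plus strand) is shown as an unbound member with 2 copies and no summit in any list, thresholded or relaxed. It is followed by the windows at the threshold: ugt-52 (chrIV:778613-778713, plus strand), the weakest bound member at rank 5426, and ugt-19 (chrIV:6080007-6080107, minus strand), the nearest below, at rank 5478 of the pooled list.
ugt-42: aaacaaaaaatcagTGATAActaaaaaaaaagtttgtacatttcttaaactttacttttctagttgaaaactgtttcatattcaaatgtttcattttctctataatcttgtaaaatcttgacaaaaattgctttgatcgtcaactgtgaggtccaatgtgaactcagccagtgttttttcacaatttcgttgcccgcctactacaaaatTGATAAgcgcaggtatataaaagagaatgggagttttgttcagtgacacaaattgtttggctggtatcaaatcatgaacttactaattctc
ugt-52: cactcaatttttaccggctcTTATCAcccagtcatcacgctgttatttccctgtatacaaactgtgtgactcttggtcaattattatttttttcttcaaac
ugt-19: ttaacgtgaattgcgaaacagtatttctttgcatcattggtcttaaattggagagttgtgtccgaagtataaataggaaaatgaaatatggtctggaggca

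The 33 unbound genes were not all empty. A summit of the pooled relaxed list lay in the promoter of 10 (30.3%), beside 20.2% of all unbound protein-coding genes. Nearest to the threshold were ugt-19 (rank 5478, signal 141, 105 bp upstream), ugt-34 (rank 5768, signal 135, 141 bp upstream) and ugt-1 (rank 5773, signal 135, 110 bp upstream). The weakest bound member, ugt-52, had signal 143, so the line between ugt-52 and ugt-19 rests on a small step in signal. The other 7 were ugt-31 (rank 7555), ugt-48 (rank 8591), ugt-15 (rank 8975), ugt-61 (rank 10114), ugt-47 (rank 12907), ugt-36 (rank 12911) and ugt-13 (rank 14431). Another 4 had a promoter summit in a single replicate list, ugt-27, ugt-25 and ugt-45 in replicate 2 and ugt-67 in replicate 1.

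The remaining 19 had no summit in the promoter in any list. For this count, and for the 4 with a summit in a single replicate list, no matching share of all unbound genes is given. The 19 were ugt-66, ugt-60, ugt-59, ugt-42, ugt-29, ugt-11, ugt-9, ugt-10, ugt-8, ugt-14, ugt-63, ugt-41, ugt-35, ugt-55, ugt-56, ugt-6, ugt-3, ugt-30 and ugt-57. Of these, 9 held TGATAA in the 300 bp promoter, which were ugt-66, ugt-60, ugt-42, ugt-29, ugt-9, ugt-14, ugt-41, ugt-6 and ugt-30. The nearest thresholded summit to an unbound ugt gene was a median of 8384 bp from the 5′ end. The farthest was 59448 bp away, at ugt-57. Matching distances for all unbound genes are not given here.

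Several ugt genes had a peak inside the gene and away from its start. The strongest lay in an intron of ugt-2, 688 bp downstream of the 5′ end, with rank 346 and signal 699 and 3 copies of TGATAA within 50 bp. It ranked 438 in replicate 1 (signal 367) and 270 in replicate 2 (signal 337). This was stronger than the promoter peak of ugt-2, which had rank 2898 and signal 240 and ranked 3033 and 2802 in replicates 1 and 2. An exon of the unbound ugt-47 held a peak 1446 bp downstream of its 5′ end at rank 1244 and signal 406, with 2 copies, and ranked 1180 and 1287 in the replicates. Other such peaks lay in ugt-6 (rank 1849), ugt-18 (rank 1915), ugt-25 (rank 3400), ugt-17 (rank 4033) and ugt-43 (rank 5095). In all, 7 summits inside ugt genes lay in no promoter window of any protein-coding gene, and ugt-25, ugt-47 and ugt-6 were unbound by the promoter rule. A matching count for all genes is not given here. Of all 5443 thresholded peaks, 3076 lay in the promoter window of a protein-coding gene.

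Many ugt genes stand close together. Joining neighbours at most 5000 bp apart gave 12 groups with 37 genes, and 30 genes stood alone. The groups, called tandem below, were set by distance alone. Members can therefore lie on opposite strands or have another gene between them, such as srh-83 between ugt-41 and ugt-36. Of the grouped genes 16 (43.2%) were bound, and of those alone 18 (60%). Of the groups, 10 had at least 1 bound member, and 8 of these also had an unbound one. The longest, ugt-12, ugt-11, ugt-9, ugt-10, ugt-67, ugt-8, ugt-14 and ugt-13 on chromosome V, had a thresholded promoter peak at ugt-12 alone, at its end. In contrast, all of ugt-40, ugt-37 and ugt-38 were bound, each by a separate peak of the weakest rank class, and so were both of ugt-43 and ugt-44. The summits of ugt-40 and ugt-38 lay 935 and 863 bp upstream, and both genes were lost in a narrower window (500 bp upstream to 100 bp downstream). Neither ugt-35 and ugt-34 nor ugt-55 and ugt-56 were bound.

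The other groups were mixed. Bound members were ugt-26 and ugt-28 beside ugt-27 and ugt-25, ugt-20 beside ugt-19, ugt-39 beside ugt-41 and ugt-36, ugt-17 beside ugt-47, ugt-2 beside ugt-1, ugt-5 and ugt-4 beside ugt-6 and ugt-3, and ugt-18 and ugt-16 beside ugt-15. Whether a gene close behind another is transcribed together with it was not tested. Of 15 ugt genes within 1000 bp behind another ugt gene on the same strand, 6 (40.0%) were bound, and of the other 52, 28 (53.8%) were. For all genes a broader split, behind any gene on the same strand and otherwise, gave 14.1% and 18.3%. The 2 splits are not alike, because the other 52 ugt genes include some close behind a gene of another family. An example is ugt-33, 152 bp behind aqp-5.

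**Figure D4:**
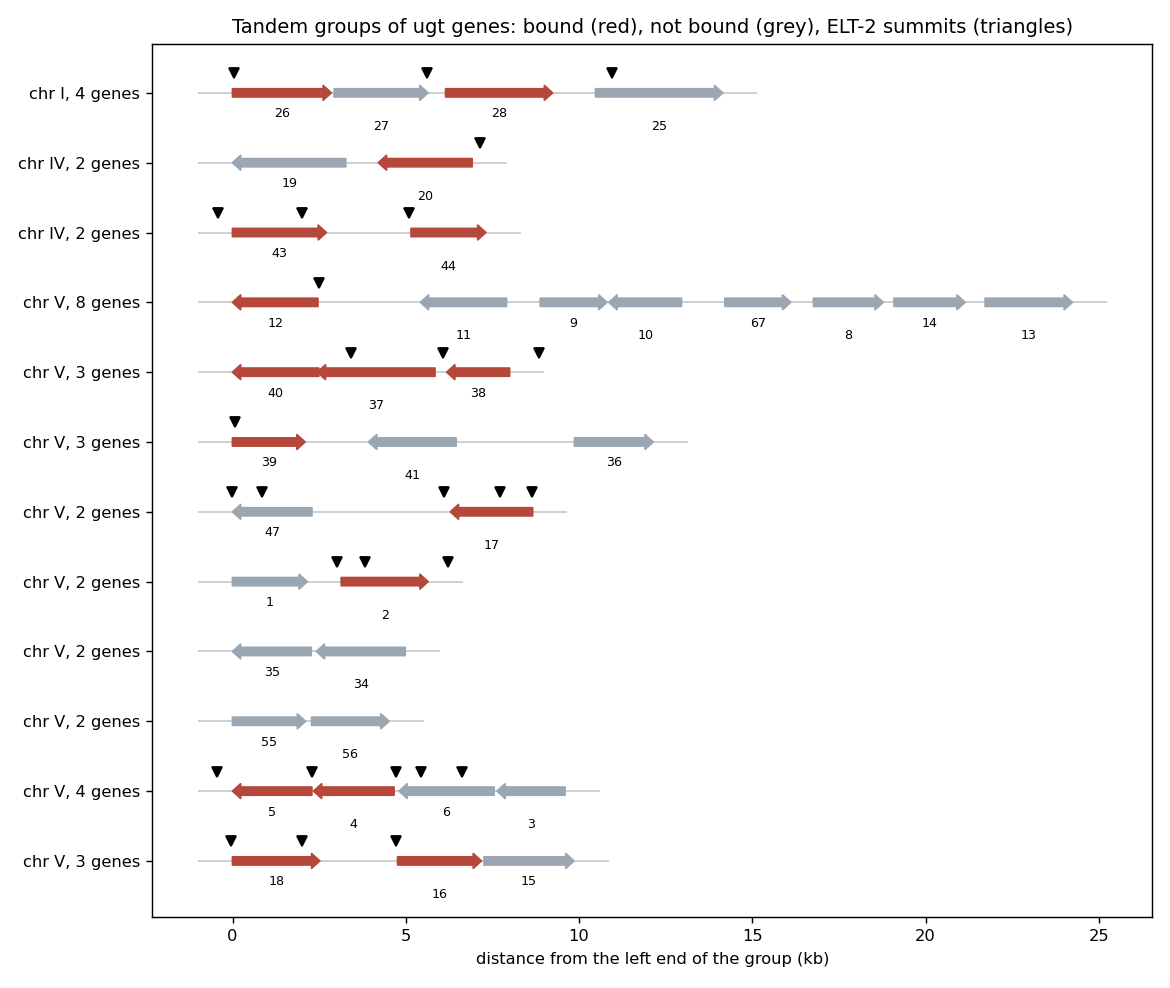
The 12 tandem groups of ugt genes drawn to scale (horizontal axis, kb from the left end of each group). Arrows show genes and their direction, red if bound and grey if not, numbers under them complete the ugt name, and triangles are all thresholded summits in the drawn span. The group of 8 genes carries a single summit, at ugt-12, while 8 of the 12 groups hold both bound and unbound members.

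The protein sequences show which members are close relatives. They ran from 483 residues (ugt-67) to 558 (ugt-57), with a median of 530, and over 2211 pairs the median identity was 31.8%. In 21 pairs each protein was the closest relative of the other. Both genes were bound in 6 of these pairs (28.6%), neither in 5 (23.8%) and a single one in 10 (47.6%). Over all 2211 pairs of members the shares were 25.4%, 23.9% and 50.7%, so the closest pairs stood near the family as a whole. Of the 13 pairs over 60% identical, 8 (61.5%) had a single bound gene.

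The most alike were ugt-38 and ugt-39, at 90.1% identity, and both were bound, but at 863 bp upstream with rank 4720 for ugt-38 and at 31 bp downstream with rank 2034 for ugt-39. Next came ugt-41 and ugt-42 (85.4%), neither bound, and ugt-28 and ugt-29 (83.6%), of which ugt-28 was bound. For ugt-20 and ugt-19 (78.8%), ugt-20 had signal 534 and ugt-19 had signal 141, below the threshold. The pairs ugt-62 and ugt-61 (75.5%), ugt-16 and ugt-15 (66.8%), ugt-2 and ugt-1 (66.5%), ugt-37 and ugt-36 (65.8%), ugt-64 and ugt-63 (62.3%) and ugt-33 and ugt-34 (61.1%) each had the first gene bound and the second not. The same was so for ugt-5 and ugt-6 (58.7%) and for ugt-46 and ugt-47 (58.3%). Pairs bound on both sides were ugt-23 and ugt-24, ugt-53 and ugt-54, ugt-43 and ugt-44, ugt-51 and ugt-52, and ugt-49 and ugt-50, at 39.6 to 56.5% identity. Pairs with neither bound were ugt-67 and ugt-9, ugt-10 and ugt-8, ugt-27 and ugt-66, and ugt-55 and ugt-56, at 44.6 to 74.7%. Unique 31-base words were counted from 1000 bp upstream to 200 bp downstream of the outermost 5′ end, which leaves out the ugt-64 summit. Fewer than 90% of these words were unique in the genome in 2 of 34 bound ugt genes (ugt-64 and ugt-20). The same was so for 7 of 33 unbound ones (ugt-3, ugt-10, ugt-48, ugt-30, ugt-67, ugt-59 and ugt-31), beside 14.6% of all genes. The part of read placement in the missing peaks was not tested.

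The other detoxification gene lists are set beside the ugt genes here, and the differences between lists were not tested. Of the cytochrome P450 genes, which act before the ugt enzymes, 25 of 74 were bound (33.8%, Wilson 95% interval 24.0 to 45.1). The strongest were cyp-37B1 (rank 252, signal 790), cyp-35A2 (rank 547, signal 594) and cyp-35A5 (rank 797, signal 507). The genes with names starting gst, gsto or ssu were taken by name alone to cover glutathione transferases and sulfotransferase, other conjugating enzymes. Of these, 17 of 49 were bound (34.7%, 22.9 to 48.7), led by gst-42 (rank 388), gst-22 (rank 578) and gst-7 (rank 670). Of the ABC transporter genes of the pgp, mrp and haf families, 10 of 30 were bound (33.3%, 19.2 to 51.2), led by mrp-5 (rank 89), pgp-1 (rank 510) and haf-3 (rank 1049). Each of these intervals overlaps that of the ugt genes, and each share lies above the 17.0% of all genes. How far the ugt share stood above the others depended on the window and the peaks used. With some choices of peaks the ABC transporter share came close to it, as given below with the other settings.

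Of 4 genes that make or move the sugar donor, 1 was bound. This was rml-1, which codes for a UTP-glucose-1-phosphate uridylyltransferase, a kind of enzyme that makes UDP-glucose, with rank 925 and signal 473 at 20 bp. The genes D1005.2, sqv-4, for a UDP-glucose dehydrogenase, and sqv-7, for a UDP-sugar transporter, were not bound. Of 11 regulators of detoxification genes, 5 were bound (45.5%, 21.3 to 72.0). The strongest were nhr-8 (rank 264), nhr-176 (rank 3472) and nhr-48 (rank 4612), all nuclear receptor genes, and pqm-1 (rank 4937) and daf-16 (rank 5121) followed. The other 6, skn-1, ahr-1, hif-1, daf-12, nhr-86 and mdt-15, were not.

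**Figure D5:**
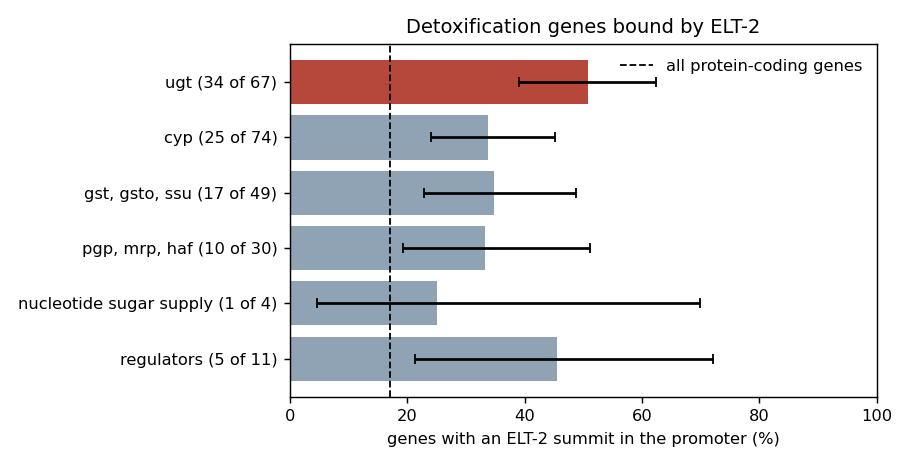
Share of genes (horizontal axis, %) with a thresholded ELT-2 summit in the promoter for the ugt genes (red) and 5 other lists of detoxification genes (grey), with Wilson 95% intervals as lines. The dashed line is the 17.0% of all protein-coding genes. The ugt bar reaches 50.7%, and the cyp, gst and ABC transporter bars reach 33.8%, 34.7% and 33.3%. The gaps between these bars depend on the window and the peaks used.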

How the data were processed

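ELT-2 ChIP-seq of 2 replicates in 1 group was read from 4 peak lists on ce11: each replicate's relaxed list, the pooled relaxed list and the thresholded list. Per the labels and the notes deposited with them, relaxed lists include background as input for IDR, and lists on ce10 were not used here. The signal of each peak is the authors' deposited value on a scale of its own list, and served only to rank and describe peaks within a list. Summit positions are also the authors' deposited values. Not given in the sources used here are the aligner, the peak caller and the IDR threshold.

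Summits were assigned to promoters of the Ensembl release 115 annotation of WBcel235, the same assembly as ce11, and sequences were read from the RefSeq genome of that assembly. Coordinates are 1-based. Proteins were translated by script from the longest coding sequence and aligned globally (BLOSUM62, gap penalties 11 and 1). Unique sequence means words of 31 bases found once in the genome, counted around the outermost 5′ end of each gene. The programs were tested on simulated summits and hexamers.

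Every ugt gene is named. From the other lists the 3 bound genes with the strongest peak are named, and further regulators and unbound genes of short lists were named after their values were seen. The members and lists were chosen with earlier results of these data known, and the longer GATA word and copy positions were added after seeing the data. No tests were made, since there is 1 group. Alternatives were other windows, rules and peak lists, and each replicate left out. The tools were Python 3.11.15 with Biopython 1.88, SciPy 1.17.1, NumPy 2.4.6, matplotlib 3.10.9 and pandas 2.3.3.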

Additional observations from a re-analysis of the deposited data

How the results depend on the processing

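The count of 34 bound ugt genes ranged from 28 (41.8%, where 13.2% of all genes were bound) in the narrower window (500 bp before to 100 bp after a 5′ end) to 37 (55.2%, where 25.2% were) in the wider one (3000 and 500 bp). The narrower window lost ugt-28, ugt-38, ugt-40, ugt-46, ugt-49 and ugt-51. The count was 36 with each summit given to the nearest 5′ end (15.1% of all genes) and 33 with the outermost 5′ end alone (15.7%). With RefSeq 5′ ends, chosen after seeing the data, it was 32 (47.8%, where 16.7% of genes were bound), without ugt-24 and ugt-65. With the thresholded peaks above the median signal alone it was 19 (28.4%, where 8.86% of all genes were bound), since fewer peaks were used, and with the whole relaxed pooled list it was 44 (65.7%, where 33.8% were). Using the 5443 strongest peaks of 1 replicate, the count was 32 without replicate 1 (16.5% of all genes) and 34 without replicate 2 (17.0%). Without replicate 1, ugt-32, ugt-38 and ugt-51 were lost and ugt-19 was gained, and without replicate 2, ugt-24 and ugt-52 were lost and ugt-1 and ugt-34 gained. The median rank of 2512 ranged from 2254 to 2599 with 1 replicate left out, which are ranks in another list. The share of ugt peaks with the hexamer was 43.2% within 25 bp of the summit (25.6% of promoter peaks) and 86.5% with the looser GATA word (54.6% of promoter peaks), since narrower windows and stricter words match fewer sequences, and it ranged from 66.7% to 69.4% with 1 replicate left out. With neighbours at most 2000 bp apart, 7 of 10 tandem groups had a bound member, and at most 10000 bp apart 9 of 11 had one. Peaks above the median signal marked 28.4% of ugt, 26.7% of ABC transporter, 14.9% of cyp and 20.4% of gst list genes. With the relaxed pooled list the shares were 65.7% for ugt, 63.3% for ABC transporter and 47.3% for cyp genes. In the wider window they were 55.2% for ugt, 46.7% for ABC transporter, 47.3% for cyp and 42.9% for gst list genes. In the narrower one 41.8% of ugt and 26.7% of ABC transporter genes were bound. The ugt share was the highest in each. No paired analysis was possible because there is 1 group and no test. Depth is unknown, so an unbound gene is one without a listed summit, not one shown to lack ELT-2.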

Other observations

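The forkhead factor DAF-16, which acts in the intestine as well, is known to recognise the word GTAAACA. This word, sought on both strands and chosen after seeing the data, was present in the 300 bp promoter of 3 of the 67 ugt genes (4.48%), beside 4.77% of all promoters of that length. The GATA word TGATAAG was present in 24 ugt promoters (35.8%), beside 9.19% of all promoters, with 13 among the bound and 11 among the unbound ugt genes.

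By chromosome, of the 42 ugt genes on chromosome V, 18 (42.9%) were bound, beside 16.1% of all genes on that chromosome. On chromosome IV, 9 of 12 ugt genes (75.0%) were bound, beside 16.1% of all genes there, and on the X chromosome 3 of 4 were, beside 19.3%. On chromosomes I, II and III, 2 of 5, 1 of 1 and 1 of 3 ugt genes were bound, beside 14.4%, 18.1% and 19.0% of all genes. Members on the same chromosome can be neighbours, and the differences between chromosomes were not tested.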
